A study of Mus musculus with 8 samples.

Results

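The miR-130/miR-301 family on the TaqMan Array Rodent MicroRNA A Cards consists of the assays miR-130a, miR-130b, miR-301a and miR-301b. These 4 of 381 assays were chosen by name, after removal of the species prefix and the assay number, and no measured value was used in the choice. Each had a determined threshold cycle (Ct) on all 8 cards, so no value was missing. The cards carried total RNA from whole liver of female C57B6 mice (C57/BL6 in the methods) that were 4 weeks of age when treatment began. Livers came from untreated mice and from mice injected intraperitoneally with carbon tetrachloride (CCl4) in corn oil for 1, 4 or 8 weeks, with 2 cards per group. CCl4 is a hepatotoxin used to induce liver fibrosis. The labels give the dose as 1 mg/kg, whereas the methods give 1 ml/kg with 2 injections a week. The series text counts 4, 3 and 2 mice at 1, 4 and 8 weeks. At 1 and 4 weeks this differs from the 2 cards per group. No vehicle-only group was among the samples analysed here, and the same untreated group served for all times. The labels do not say whether a card held the RNA of a single mouse, so p-values measure the spread between cards.

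MicroRNAs pair with messenger RNAs mainly through bases 2 to 8 at their 5' end, the seed, and lower the stability and translation of those messages. Members of the miR-130/miR-301 family carry the same seed and are therefore expected to recognize largely overlapping targets. The gene for PPARγ, a nuclear receptor that keeps hepatic stellate cells and adipocytes differentiated, is a well-known target of miR-130, and the family has been linked to vascular disease and to matrix deposition in the lung. miR-130a is also known from endothelial cells, where it promotes angiogenesis.

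The mature sequences are shown because the shared seed is what makes these assays a family and because the rest of the sequence is what an assay must use to tell them apart. Deposited assay names carry no arm and were read as the arm now named 3p. Sequences and positions are those of RefSeq on GRCm38.p6, in which 3 of the 4 members were matched; miR-301b-3p is named only. Capitals mark the seed.
miR-130a-3p: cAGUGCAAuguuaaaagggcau
miR-130b-3p: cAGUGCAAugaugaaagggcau
miR-301a-3p: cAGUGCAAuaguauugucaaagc
All 3 begin with the same 9 bases. Over their first 22 bases, miR-130a-3p and miR-130b-3p matched at 20 and mismatched at 2, whereas miR-301a-3p matched miR-130a-3p at 12 and miR-130b-3p at 11. Cross-detection between miR-130a and miR-130b was not tested here. Of 1679 mature names in the reference, 7 hold this seed at bases 2 to 8, and 3 of these are on the cards.

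The mature sequence of miR-130a-3p lies at chr2:84741116-84741137 on the minus strand, and the span of no other listed gene overlaps its hairpin. That of miR-301a-3p lies at chr11:87113054-87113076 on the plus strand, within the span of Ska2, a protein-coding gene of the kinetochore. miR-130b-3p lies at chr16:17124071-17124092 on the minus strand. The hairpins of miR-130b and miR-301b lie on the same strand with 257 bases between them, within the span of the protein-coding gene 2610318N02Rik. The 4 members thus come from 3 places in the genome, of which only the last holds a pair.

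Of the 381 assays, 168 were determined on all cards and 102 on none, with 193 to 235 determined per card. A reference level was taken for each card, namely its average Ct for the 149 assays that stayed below Ct 35 throughout, and the Ct of an assay was subtracted from it. On this log2 scale a higher value means more template, and a value below 0 means a Ct later than the card mean. Mean Ct over those assays ranged from 27.5 to 29.8, and cards of a group differed by 0.17 to 1.52 cycles. The 4 weeks card of replicate 2 was the faintest. The hepatocyte miRNA miR-122 had a Ct of 21.95 to 24.16 on all cards.

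None of the 4 members passed the test at any time on CCl4. limma was fitted to 166 assays with Benjamini-Hochberg adjustment at 0.05. At 1 week 0 of 4 members passed, beside 32.5% of all tested assays (54 of 166). At 4 weeks it was 0 of 4, beside 30.1% (50 of 166), and at 8 weeks 0 of 4, beside 3.01% (5 of 166). At an unadjusted p of 0.05 the members' count was also 0 at each time, against 73, 73 and 40 of all tested assays. These shares moved when single cards were left out, down without some cards and slightly up without others. Such a fit leaves 1 group with 1 card and fewer cards to estimate the spread. Its counts therefore do not show on which cards the calls rest. The counts at 1, 4 and 8 weeks also followed the processing. They were 5, 10 and 1 without normalization and 47, 56 and 12 with the endogenous control RNAs. With the card median they were 54, 44 and 5, and with the geometric mean of all determined Ct 51, 35 and 1. With undetermined values set to Ct 40, which tests another set of assays, they were 24, 3 and 0. In fits to only the groups compared they were 66, 37 and 0. The members' lowest unadjusted p was 0.158 and their adjusted p ranged from 0.266 to 0.964.

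Of the 12 log2 fold changes of the family, 8 were above 0 and 4 below, and they ran from -0.54 to 0.75. The largest in size were 0.55 at 1 week and 0.75 at 4 weeks. The median size over all tested assays was larger at both times, at 0.86. At 8 weeks the largest was 0.67, and the median size over all assays was 0.61. The members' median log2 fold change was 0.20, 0.35 and -0.0050 at 1, 4 and 8 weeks, whereas that of all tested assays was -0.09, 0.03 and -0.04. These values are those of the main centring, and their signs followed the centring. At 4 weeks all 4 members were above 0 with scaling to the endogenous control RNAs and all 4 below 0 without normalization. With 2 cards per group the 95% intervals were wide, and over the 12 values of the main centring they reached from -1.41 to 1.86.

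**Figure D1:**
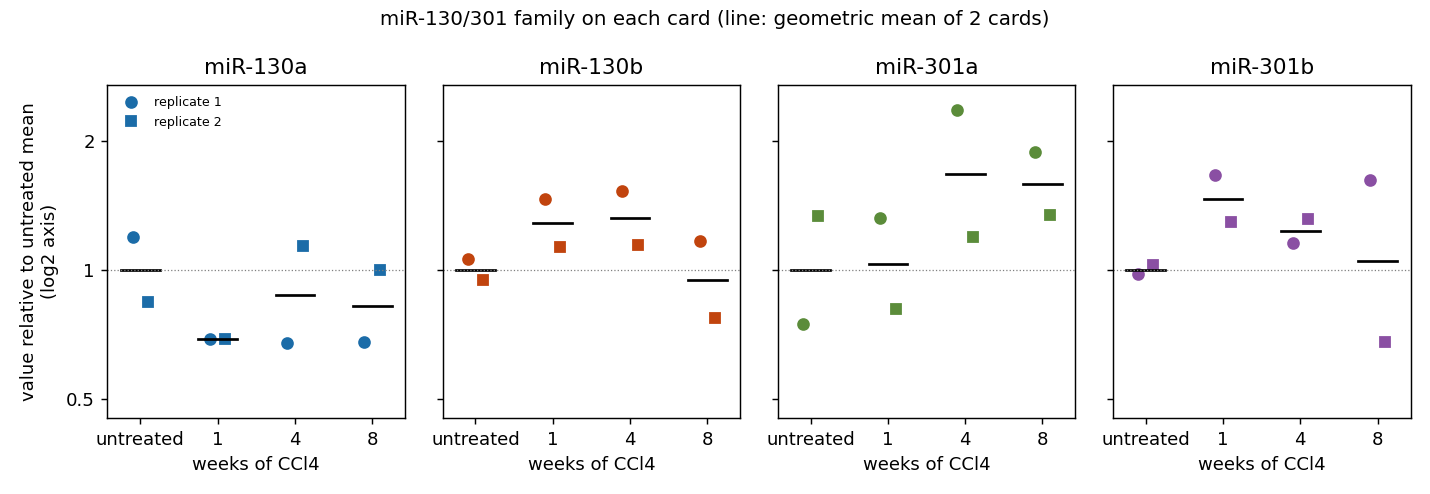
Value of each family member on each card relative to the untreated mean (log2 axis), by weeks of CCl4, with circles for replicate 1, squares for replicate 2 and a line at the geometric mean of the 2 cards. miR-130a sits between 0.674 and 0.689 on 4 of the 6 CCl4 cards, and miR-301a is spread most widely, from 0.748 to 2.36.

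With the main centring, miR-130a was the only member with a mean below the untreated mean at all 3 times. With the control RNAs it lay above untreated at 4 and 8 weeks (log2 0.45 and 0.18). Without normalization miR-130b was also below at 1, 4 and 8 weeks (-0.15, -0.445 and -0.09). The Ct of miR-130a was 27.76 and 27.91 on the untreated cards and 28.97 and 28.80 after 1 week. It was 28.49 and 29.26 after 4 weeks, and 27.71 and 28.55 after 8 weeks. Relative to the untreated mean, the values were 1.19 and 0.840 in untreated liver, 0.688 and 0.689 after 1 week, 0.674 and 1.13 after 4 weeks, and 0.678 and 0.997 after 8 weeks. The 1 week cards lay below both untreated cards, whereas 1 card of each later pair lay within the untreated range. The latter depends on the centring. With cards centred on the mean of all their determined assays, all 6 CCl4 cards lay below both untreated cards, at 1.013 and 1.3005 (1 week), 1.60 and 1.56 (4 weeks) and 1.51 and 1.890 (8 weeks) against 2.21 and 1.899 in untreated liver. With the geometric mean of all determined Ct, all but the 8 weeks card of replicate 2 did.

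The log2 fold change of miR-130a was -0.54 at 1 week (standard error 0.37, 95% interval -1.41 to 0.33, adjusted p = 0.282 from limma). At 4 weeks it was -0.19 (interval -1.07 to 0.68, adjusted p = 0.726) and at 8 weeks -0.28 (interval -1.16 to 0.59, adjusted p = 0.633). The 1 week interval thus runs from 0.376 to 1.26 on the fold scale. At 1 week the value was -0.29 without untreated replicate 1 and -0.79 without untreated replicate 2. With the geometric mean of all determined Ct it was -0.88. At 8 weeks it was near 0 without 8 weeks replicate 1 (-0.0050) or untreated replicate 1 (-0.031), and -0.56 and -0.53 without the other card of each of these groups. At 4 weeks it lay above 0 without untreated replicate 1 (0.057) or 4 weeks replicate 1 (0.18). It lay further below 0 without untreated replicate 2 (-0.45) or 4 weeks replicate 2 (-0.57). With the geometric mean the 4 weeks value was -0.40, and without normalization -1.04. In order, untreated liver was highest, followed by 4, 8 and 1 weeks, and the cards of neighbouring groups in this order overlapped.

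The CCl4 cards on which miR-130a was near or above the untreated mean were those of replicate 2 at 4 and 8 weeks. These cards also had the latest mean Ct of all, 29.8 and 28.9, against 27.5 to 28.8 on the others. The part of this faintness in the values of miR-130a was not tested.

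miR-130b, which has the seed of miR-130a on a different transcript, was higher on both cards than on either untreated card at 1 and at 4 weeks with the main centring. Its Ct was 31.69 and 31.50 in untreated liver, 31.64 and 31.85 after 1 week, 31.07 and 33.01 after 4 weeks, and 30.69 and 32.68 after 8 weeks. After centring, the values relative to untreated were 1.06 and 0.945, then 1.47 and 1.13 after 1 week, 1.53 and 1.14 after 4 weeks, and 1.16 and 0.771 after 8 weeks. The 8 weeks cards lay on either side of the untreated pair.

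Its log2 fold changes were 0.36 at 1 week (standard error 0.33, 95% interval -0.42 to 1.14, adjusted p = 0.397 from limma), 0.40 at 4 weeks (interval -0.38 to 1.18, adjusted p = 0.382) and -0.077 at 8 weeks (interval -0.86 to 0.70, adjusted p = 0.898). With the geometric mean these values were 0.018 at 1 week and 0.19 at 4 weeks, with cards that no longer lay on 1 side of the untreated pair. Without 1 week replicate 1 or 2 the 1 week value was 0.17 or 0.55, and without 4 weeks replicate 1 or 2 the 4 weeks value was 0.19 or 0.61. The order was 4 weeks, 1 week, untreated and 8 weeks. The cards of neighbouring groups overlapped except between 1 week and untreated, where they did not overlap and limma's adjusted p was the 0.397 given above. This member had the smallest replicate SD of the family, 0.30 on the log2 scale, where the median over all tested assays was 0.39.

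miR-301a, the member within the span of Ska2, had its highest values at 4 and 8 weeks. Its Ct was 30.82 and 29.63 in untreated liver, 30.42 and 30.96 after 1 week, 29.07 and 31.58 after 4 weeks, and 28.63 and 30.51 after 8 weeks. Relative to the untreated mean it stood at 0.748 and 1.34 in untreated liver, 1.32 and 0.808 after 1 week, 2.36 and 1.19 after 4 weeks, and 1.88 and 1.34 after 8 weeks. The untreated pair was itself far apart, so that the 1 week and 4 weeks cards overlapped it. At 8 weeks the lower card exceeded the higher untreated card only in the third decimal of the log2 value, at -1.631 against -1.638.

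The log2 fold change of miR-301a was 0.047 at 1 week (standard error 0.48, 95% interval -1.06 to 1.16, adjusted p = 0.964 from limma), 0.75 at 4 weeks (interval -0.37 to 1.86, adjusted p = 0.266) and 0.67 at 8 weeks (interval -0.44 to 1.78, adjusted p = 0.367). The 4 weeks value was the largest of the family and leaves room for a fold of 0.776 to 3.62. Without the 4 weeks card of replicate 1 it was 0.25, below the 0.40 of miR-301b in the same fit, and without that of replicate 2 it was 1.24. Without untreated replicate 1 it was 0.33 and without untreated replicate 2 it was 1.16. The 8 weeks value was 0.25 and 1.09 without untreated replicates 1 and 2, and 0.43 and 0.91 without 8 weeks replicates 1 and 2. From high to low the order was 4 weeks, 8 weeks, 1 week and untreated. The cards of neighbouring groups overlapped except for 8 weeks and 1 week, which differed by 0.62 without overlap (adjusted p = 0.346 from limma). That difference was 0.97 and 0.27 without 1 week replicates 1 and 2, and 0.38 without 8 weeks replicate 1. The replicate SD of miR-301a, 0.55, was also the largest of the family.

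miR-301b, the neighbour of miR-130b, was above both untreated cards at 1 and 4 weeks with the main centring. Its Ct was 30.95 and 30.53 in untreated liver, 30.60 and 30.80 after 1 week, 30.62 and 31.95 after 4 weeks, and 29.36 and 32.01 after 8 weeks. The relative values were 0.977 and 1.02 in untreated liver, 1.67 and 1.29 after 1 week, 1.15 and 1.32 after 4 weeks, and 1.62 and 0.678 after 8 weeks. The untreated cards were the closest pair of the 4 groups, and the 8 weeks cards the farthest apart, with 1 above and 1 below the untreated range.

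For miR-301b the log2 fold change was 0.55 at 1 week (standard error 0.43, 95% interval -0.44 to 1.55, adjusted p = 0.321 from limma), 0.30 at 4 weeks (interval -0.69 to 1.295, adjusted p = 0.632) and 0.068 at 8 weeks (interval -0.93 to 1.06, adjusted p = 0.922). The means ran down from 1 week to 4 weeks, 8 weeks and untreated liver, with overlapping cards between neighbouring groups. With the geometric mean the values were 0.21 at 1 week and 0.091 at 4 weeks, and the 4 weeks cards no longer both lay above the untreated pair. Without 1 week replicate 1 the 1 week value was 0.37, and without 4 weeks replicate 2 the 4 weeks value was 0.205. The 8 weeks mean rests on discordant cards, being -0.56 without the card of replicate 1 and 0.70 without that of replicate 2.

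Counted over the family, both cards of a group lay outside the untreated range in 1 direction for 3 of 4 members at 1 week (miR-130a below, miR-130b and miR-301b above). It held for 2 of 4 at 4 weeks, miR-130b and miR-301b, and for miR-301a alone, 1 of 4, at 8 weeks. The same held for 76.5%, 68.1% and 60.8% of all tested assays. With the main centring the family's counts were thus no higher than that background. The members counted change with the centring. With the geometric mean, the count was 2 of 4 at 1 week (miR-130a below, miR-301b above, 74.7% of all assays), 1 of 4 at 4 weeks (miR-130a, below, 58.4%) and 0 of 4 at 8 weeks (59.0%). With the control RNAs it was 3 of 4 at 4 weeks (miR-130b, miR-301a and miR-301b above), beside 71.1%. With the card median or quantile normalization it was 3 of 4 at 1 week, beside 74.7%. At 1 week miR-130a lay below both untreated cards under each of the 7 centrings.

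**Figure D2:**
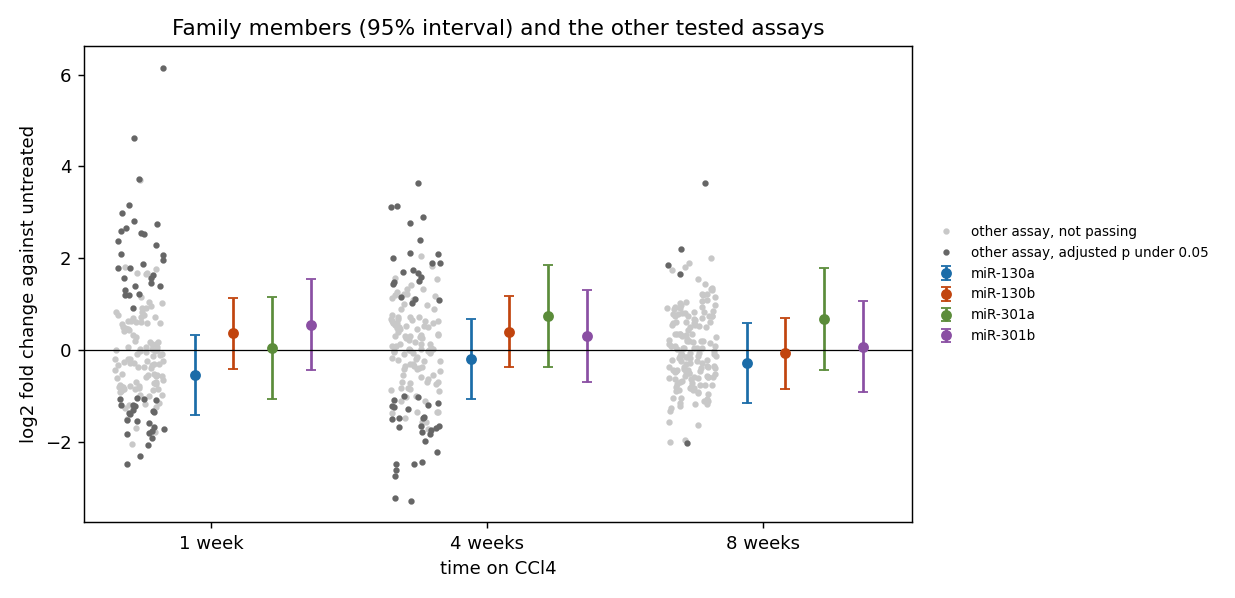
Log2 fold change against untreated at each time, with the 4 members as coloured points with 95% intervals and the other tested assays as grey points, darker where they passed an adjusted p of 0.05. All 12 intervals of the family include 0, and its values lie between -0.54 and 0.75.

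To ask whether the family differed between times on CCl4, the CCl4 groups were compared with each other. All mice were 4 weeks of age at the start, so mice treated for longer were also older. Time on CCl4 and age cannot be told apart here. Between 4 weeks and 1 week, 0 of 4 members passed, beside 47.0% of all tested assays. Between 8 weeks and 1 week it was 0 of 4, beside 24.1%, and between 8 and 4 weeks 0 of 4, beside 1.20%. Those shares too moved when single cards were left out, in fits with the same limit. At an unadjusted p of 0.05 the members' counts were 0 as well, against 94, 70 and 27 of all tested assays. The difference furthest from 0 on all cards was that of miR-301a, 0.70 higher at 4 weeks than at 1 week (95% interval -0.41 to 1.81, adjusted p = 0.249 from limma). It was 0.20 without 4 weeks replicate 1, below the 0.72 of miR-130a in that fit, and 0.34 without 1 week replicate 2. It was 1.19 without 4 weeks replicate 2 and 1.05 without 1 week replicate 1. For miR-130a the corresponding difference was 0.34 (adjusted p = 0.467), for miR-130b 0.038 (adjusted p = 0.940) and for miR-301b -0.25 (adjusted p = 0.633). From 4 to 8 weeks all 4 differences were below 0, from -0.48 for miR-130b to -0.078 for miR-301a. That shared direction does not hold under other settings. All 4 were above 0 without normalization, miR-130a and miR-301a were above 0 with the geometric mean, and leaving out a single card turned the sign of each member other than miR-130b. The difference of miR-130b was -0.27 without 4 weeks replicate 1 and -0.78 without 8 weeks replicate 1.

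The 6 CCl4 cards were also pooled and set against the 2 untreated cards. In a two-sided exact permutation test with 28 possible splits, for which p cannot fall below 0.0357, the mean log2 difference was -0.34 for miR-130a (p = 0.357). It was 0.23 for miR-130b (exact permutation p = 0.5), 0.49 for miR-301a (p = 0.357) and 0.31 for miR-301b (p = 0.429). With other centrings that of miR-130a was -0.575 (card mean of all determined, exact permutation p = 0.0714), -0.53 (geometric mean, p = 0.107) and -0.46 (quantile, p = 0.0714). It was -0.35 with the card median (exact permutation p = 0.357), -0.05 with the control RNAs (p = 0.964) and -0.795 without normalization (p = 0.179). These differences also moved with single cards. For miR-130b and miR-301b they were 0.35 and 0.48 without 8 weeks replicate 2 (exact permutation p = 0.0952 for each), and that of miR-130b was 0.15 without untreated replicate 2. Those of miR-130a and miR-301a moved with the untreated cards. Without untreated replicate 1 they were -0.087 and 0.068, and without untreated replicate 2 they were -0.59 and 0.90. For miR-130a, 4 of 6 CCl4 cards lay below both untreated cards and none above. For miR-130b and miR-301b, 5 of 6 lay above both and 1 below, the latter being in each case the 8 weeks card of replicate 2. For miR-301a, 3 of 6 lay above both and the others within the untreated range. With the main centring no member had all 6 CCl4 cards on 1 side of the untreated pair, which was the case for 29.5% of all tested assays (49 of 166). With the mean of all determined assays miR-130a did, 1 of 4 members beside 27.7%, and under the other 5 centrings no member did.

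Ratios between members on the same card do not depend on which reference level is used for that card, although quantile normalization does change them. They were used to ask whether the members moved unequally. All 6 pairs went through the same permutation test of 6 against 2 cards. The ratio of miR-130a to miR-130b was 0.17 and -0.17 on the untreated cards around their mean, -1.09 and -0.71 after 1 week, -1.18 and -0.010 after 4 weeks, and -0.78 and 0.37 after 8 weeks. Both 1 week cards lay below the untreated pair, and 4 of the 6 CCl4 cards did. The mean difference was -0.57 (exact permutation p = 0.357, and 0.714 adjusted over the 6 pairs). The ratio of miR-130a to miR-301b behaved alike, at -1.28 and -0.91 after 1 week, -0.78 and -0.22 after 4 weeks, and -1.26 and 0.56 after 8 weeks, with a mean difference of -0.65 (exact permutation p = 0.357), and -0.36 and -0.93 without untreated replicates 1 and 2. That of miR-130a to miR-301a averaged -0.83 (exact permutation p = 0.25), and was -0.155 without untreated replicate 1 and -1.495 without untreated replicate 2. The ratio of miR-130b to miR-301a differed by -0.26 and that of miR-301a to miR-301b by 0.18. None passed, with adjusted values from 0.714 to 0.821. With this number of cards a single pair could not have passed after adjustment over 6 pairs, so the adjusted values do not show that the members moved equally.

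The ratio of miR-130b to miR-301b, the pair with neighbouring hairpins, varied least. It was 0.12 and -0.12 on the untreated cards, -0.19 and -0.20 after 1 week, 0.41 and -0.21 after 4 weeks, and -0.48 and 0.19 after 8 weeks, with a mean difference of -0.078 between CCl4 and untreated cards (exact permutation p = 0.786). Its SD over the 8 cards was 0.28. The other 5 pairs of members had SDs from 0.53 to 0.79, and the median over all 13695 pairs of tested assays was 1.07. Only 0.526% of all pairs had an SD as small, and for the other pairs of members that share was 8.17% to 27.1%. This is a description of these cards. An SD of a ratio also follows the noise of both assays and how far each moved between groups.

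**Figure D3:**
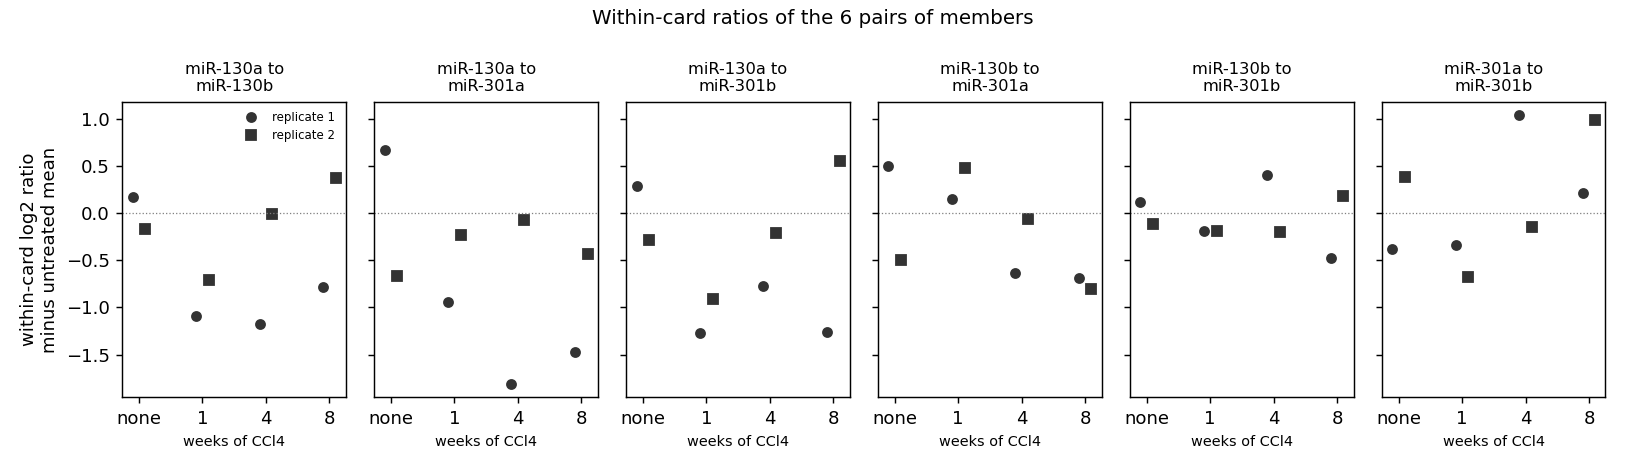
Within-card log2 ratio of each pair of members, minus its mean on the untreated cards, by weeks of CCl4, with circles for replicate 1 and squares for replicate 2. The ratio of miR-130b to miR-301b stays between -0.48 and 0.41, whereas the ratios of miR-130a to the other members reach below -1.

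Across the 8 cards, centred values of miR-130b and miR-301b correlated with r = 0.76 (Spearman 0.74). With the main centring, miR-130a correlated negatively with each of the others, with r = -0.56 for miR-130b, -0.51 for miR-301a and -0.56 for miR-301b. miR-301a correlated with r = 0.36 with miR-130b and 0.17 with miR-301b. The cards fall into 4 groups and share their centring, so these coefficients are descriptions. Their signs can change with the centring, and coefficients under other centrings were not computed.

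The tested assays whose values with the main centring were most like each member were ranked by Pearson r over the 8 cards among the other 165. For miR-130b the first was miR-301b, followed by miR-503 (r = 0.70) and miR-18a (0.69). For miR-301b the first was miR-503 (0.93), then miR-130b and miR-376c (0.74). The partners thus stood first and second in each other's lists. For miR-301a the list was miR-215 (0.84), miR-21 (0.82) and miR-18a (0.76), and for miR-130a it was miR-100 (0.87), miR-122 (0.83) and miR-151-3p (0.81). Besides the members themselves, miR-503 and miR-18a each appeared in 2 lists.

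A further 5 assays on the cards hold 6 consecutive letters of the seed, AGUGCA or GUGCAA on the strand of the miRNA, within their first 9 bases. These are miR-148a, miR-148b, miR-152, miR-19a and miR-19b. They are shown by 1 example of each kind, with bases 2 to 8 in capitals, to make visible that their seeds are the family's shifted by 1 base.
miR-148a-3p: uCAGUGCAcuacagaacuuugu
miR-19b-3p: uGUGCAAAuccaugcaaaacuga
At 1 week 0 of 5 passed, beside 32.5% of all tested assays. At 4 weeks 2 of 5 passed and were lower, beside 30.1%, and at 8 weeks 0 of 5 passed, beside 3.01%. The 2 were miR-148a (log2 fold change -1.49, adjusted p = 0.0076 from limma) and miR-152 (-1.23, adjusted p = 0.0204). The median log2 fold change of all 5 was -0.10, -0.41 and -0.44 at the 3 times, beside the members' 0.20, 0.35 and -0.0050. Differences between these assays and the members were not tested.

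Among miRNAs otherwise linked to fibrosis, 7 of 10 listed as raised were tested. At 1, 4 and 8 weeks 3, 4 and 1 of these passed, all higher. Of 11 listed as lowered, all tested, 3 passed lower and 1 higher at 1 week, 3 passed lower at 4 weeks and 0 passed at 8 weeks. These counts stand beside 32.5%, 30.1% and 3.01% of all tested assays, and nothing particular to the lists is read from them.

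Marker miRNAs of liver cell types were read on the same cards, beside the 32.5%, 30.1% and 3.01% of all tested assays that passed at 1, 4 and 8 weeks. In bulk RNA, fewer cells of a type and less RNA per cell cannot be told apart. The hepatocyte list (4 of 4 tested) had 1, 3 and 1 members lower at 1, 4 and 8 weeks, and its mean over the list, relative to untreated, was -1.07 on both cards at 1 week, -2.34 to -2.04 after 4 weeks and -1.14 to -1.06 after 8 weeks. The leukocyte list (6 of 6 tested) had 5, 4 and 0 members higher, with list means of 1.38 to 1.497, 1.29 to 1.55 and 0.52 to 0.86. The endothelial list, the arms of miR-126, had 0, 2 and 0 members lower, with list means of 0.38 on both cards, -2.09 to -1.39 and -1.39 to -0.33. The mesenchymal list (4 of 5 tested) had 0, 2 and 0 members higher, with list means of 0.12 to 0.18, 0.60 to 0.78 and 0.20 to 0.39. miR-199a-5p was determined on 1 card. The erythroid list (2 of 2 tested) had none passing, with list means from -0.38 to 0.67. The part of these cell types in the members' values was not tested.

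The sign of several members followed the centring of the cards. The fold change of miR-130a at 1 week was below 0 and that of miR-301b above 0 under each of the 7 centrings, no normalization included, and that of miR-301a at 8 weeks was above 0 under each. Scaling to U6, snoRNA135 and snoRNA202, which moved the median of all tested assays at 4 weeks from 0.03 to 0.67, put miR-130a at 0.45 there. It also gave differences between 4 weeks and 1 week of 1.23 for miR-130a (adjusted p = 0.0366 from limma) and 1.58 for miR-301a (adjusted p = 0.0236). With the main centring, U6 itself was higher at 1 week than in untreated liver (2.38, adjusted p = 0.0080 from limma) and lower at 4 weeks than at 1 week (-3.88, adjusted p = 0.0022). snoRNA202 was higher at 4 weeks than at 1 week (1.00, adjusted p = 0.0311). These 2 values of miR-130a and miR-301a were the only ones of the family that passed under any alternative tried, and with that scaling 92 of 166 tested assays passed and their median was itself 0.85.

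**Figure D4:**
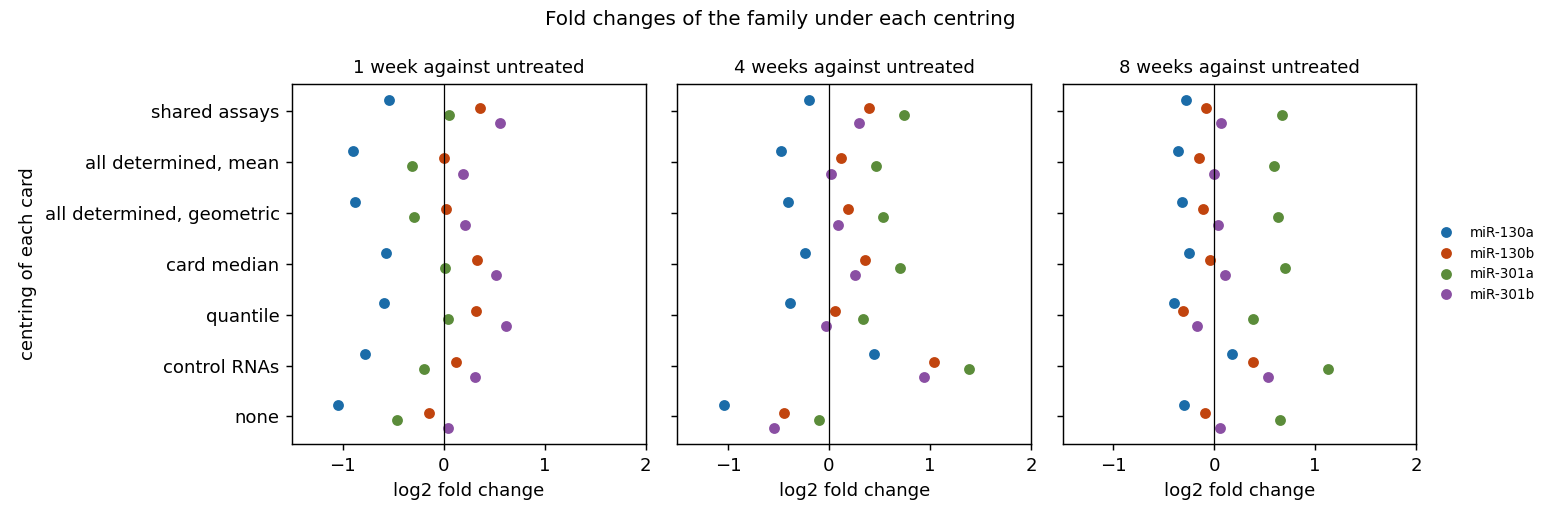
Log2 fold change of each member against untreated (x axis) under each centring of the cards (rows), by time. At 4 weeks all 4 members lie above 0 with the control RNAs, with miR-130a at 0.45, and all 4 lie below 0 without normalization.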

How the data were processed

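Total liver RNA was reverse transcribed without pre-amplification and run by the authors on the TaqMan rodent A Cards. The deposited values are raw Ct, a cycle-number score on an inverted log2 scale that is not normalized and is given per card, with undetermined wells left empty. How the Ct threshold was set is not given in the sources used here. A second deposited table holds the authors' fold changes of group means against untreated and was not used.

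Groups and replicate numbers were taken from the labels. Each card was centred on the assays below Ct 35 on every card, because the number of late assays determined differed between cards. The methods used the geometric mean of each plate and do not say of which values. As an alternative here, it was taken of all determined Ct. limma 3.58.1 in R 4.3.3 was fitted to all 8 cards in 1 model (lmFit and eBayes, prior degrees of freedom 3.47), on the 166 assays with no undetermined well whose mean Ct lay below 35, with Benjamini-Hochberg adjustment within each comparison. The procedure was tested on simulated data, and no result from them is used here. The number of cards limits the precision.

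Earlier results of these data were known when the members, lists and tests were chosen. The members were nevertheless picked by name, without use of a measured value. Named were the 4 members, the 3 assays most like each, and assays sharing part of the seed. Sequences are from RefSeq, GRCm38.p6, since no build is named with the values. Alternatives were other centrings, Ct limits of 32 or none, undetermined values set to Ct 40, the replicate block, eBayes with a trend, fits to only the 2 groups in question, a threshold of 0.10, and each card left out. Plots were drawn with matplotlib 3.10.9.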

Additional observations from a re-analysis of the deposited data

How the results depend on the processing

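Against untreated, the members were recomputed under 252 alternative values, of which 132 could not move from the value reported. None passed the threshold (lowest adjusted p = 0.0548, limma), and 21 changed sign. Between times, 2 of 252 passed and 26 changed sign. The cause of each change was not tested. With 2 cards per group the 95% intervals of the members were wide, and no detection limit was computed.

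With cards centred on all their determined assays, miR-301a was -0.31 at 1 week, miR-301b -0.0046 at 8 weeks, miR-130b -0.0084 over all CCl4 cards, and between 8 and 4 weeks miR-130a was 0.12 and miR-301a 0.13. With the geometric mean these were -0.30 for miR-301a at 1 week, and 0.091 and 0.10 between 8 and 4 weeks. With quantile normalization, miR-301b was -0.031 at 4 weeks and -0.17 at 8 weeks, miR-130b -0.26 between 4 weeks and 1 week, and miR-301a 0.049 between 8 and 4 weeks.

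With the control RNAs, 2 of 4 members changed between 4 weeks and 1 week, miR-130a (1.23) and miR-301a (1.58), beside 92 of 166 of all tested assays, and miR-301b was 0.63. miR-301a was -0.19 at 1 week, miR-130a was 0.45 (4 weeks) and 0.18 (8 weeks), miR-130b 0.38 at 8 weeks, and between 8 weeks and 1 week miR-130b was 0.26 and miR-301b 0.22.

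Without normalization, values against untreated were -0.15 and -0.45 for miR-130b at 1 and 4 weeks, -0.47 and -0.10 for miR-301a, and -0.55 for miR-301b at 4 weeks. Over all CCl4 cards they were -0.23 for miR-130b and -0.15 for miR-301b. Between 4 weeks and 1 week miR-130b was -0.30, between 8 weeks and 1 week miR-130b was 0.06 and miR-301b 0.015, and between 8 and 4 weeks the values were 0.75 for miR-130a, 0.36 for miR-130b, 0.76 for miR-301a and 0.60 for miR-301b.

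When single cards were left out in turn, where a group left with 1 card was assumed to vary like the others, miR-301a at 1 week ranged from -0.37 to 0.47, miR-130a at 4 weeks from -0.57 to 0.18, miR-130b at 8 weeks from -0.37 to 0.22 and miR-301b at 8 weeks from -0.56 to 0.70. Between 4 weeks and 1 week, miR-130a ranged from -0.032 to 0.72, miR-130b from -0.17 to 0.25 and miR-301b from -0.44 to -0.068. Between 8 weeks and 1 week, miR-130a ranged from -0.022 to 0.53 and miR-301b from -1.11 to 0.14. Between 8 and 4 weeks, the ranges were -0.46 to 0.29 for miR-130a, -0.57 to 0.42 for miR-301a and -0.86 to 0.39 for miR-301b. The ratio of miR-130b to miR-301a ranged from -0.76 to 0.24, that of miR-130b to miR-301b from -0.19 to 0.037 and that of miR-301a to miR-301b from -0.21 to 0.57.

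With the replicate number as a block, which cannot move a fold change (miR-130a at 1 week stays at -0.54), 0 members passed in each comparison (adjusted p from 0.257 to 0.965, limma). The replicate block was not used in the main test because the labels do not tie same-numbered cards together, and the differences between replicates correlated across assays with r from -0.50 to 0.43 between groups, so the numbers were not taken to pair the cards.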
